A study of Mus musculus with 8 samples.

Results

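The genes described here encode feedback inhibitors and outputs of the ERK branch of MAP kinase signalling: the dual-specificity phosphatases Dusp1, Dusp2, Dusp4, Dusp6 and Dusp16, the Sprouty proteins Spry1, Spry2 and Spry4, the pleckstrin homology-like domain protein Phlda1 and the ETS transcription factor Etv5. They were chosen by name, and every probe set with 1 of these symbols as its single annotated gene was taken. Of the 10 genes, 6 were on the array through 8 probe sets, out of 8251 single-symbol genes in all. No probe set carried Dusp4, Spry1, Spry2 or Etv5 as its single symbol, so these 4 genes were not analysed here.

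Growth factors and cytokines activate Ras, Raf, MEK and ERK in turn, and active ERK switches on genes that limit it. Dual-specificity phosphatases remove the activating phosphates from MAP kinases, and Sprouty proteins act upstream, between the receptor and Raf. In fibroblasts such genes belong to the early transcriptional answer to serum and growth factors, and Dusp6 is widely read as a marker of ERK activity.

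The cells were mouse embryonic fibroblasts of 2 genotypes, STAT3+/+ (Stat3 WT) and STAT3-/- (Stat3 KO), as spontaneously immortalized cell lines. Cells of both genotypes grew in DMEM with heat-inactivated FCS, glutamine, penicillin and streptomycin. They were untreated or received oncostatin M (OSM) at 20 ng/ml for 30 minutes. OSM is an interleukin-6 family cytokine acting through gp130 receptors on both STAT3 and the ERK cascade. The treatment follows the sample titles, because the descriptions of the untreated samples name OSM too. Each of the 4 groups has 2 arrays, numbered replicate 2 and replicate 3, and the labels say neither what the number marks nor how many lines stand for a genotype, so Stat3 and other differences between lines cannot be told apart. The labels do not describe how Stat3 was deleted. The number of arrays limits the precision of every value, and in bulk RNA fewer cells expressing a gene and less RNA per cell cannot be told apart.

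Each value is the log2 expression of 1 probe set on 1 array, so a difference of 1 is 2-fold. Stat3 itself, by its brightest probe set, lay at 10.11 to 11.94 on Stat3 WT and 7.81 to 9.17 on Stat3 KO arrays. Of 11 fibroblast markers on the array 9 reached a log2 value of 5 on at least 2 arrays, Col1a1 reading 14.98 to 15.87, but the probe sets of Vim (3.45 to 3.70) and Thy1 (2.22 to 2.42) stayed near background. Epcam, Ptprc, Cdh5, Myod1 and Sox10, each a marker of another lineage, were under 5 on every array. However, 2 of 6 epithelial, 2 of 7 leukocyte, 2 of 5 endothelial, 2 of 5 muscle and 1 of 5 neural markers reached that level on at least 2 arrays. Some of these were well above it, with Cd14 at 9.34 to 11.62, Csf1r at 8.8 to 10.2 and Tubb3 at 10.83 to 12.44. The muscle markers Myog and Actc1 read 7.19 to 9.66 and 10.48 to 11.12, and the endothelial marker Kdr 4.30 to 8.12. The part of these markers in the results was not tested. Arrays sharing a number correlated at 0.9325 to 0.977, and both arrays of a group at 0.8694 to 0.9258. Each number holds all 4 groups, so each difference is also given within replicate 2 and within replicate 3.

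Of the 6 genes, Dusp1, Dusp2, Dusp6, Dusp16 and Phlda1 had a probe set that passed the filter of log2 5 on at least 2 arrays, and these 5 probe sets were above 5 on all 8 arrays. Spry4 and the remaining Dusp6 and Dusp16 probe sets did not pass. The plot of levels by array shows each gene.

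**Figure D1:**
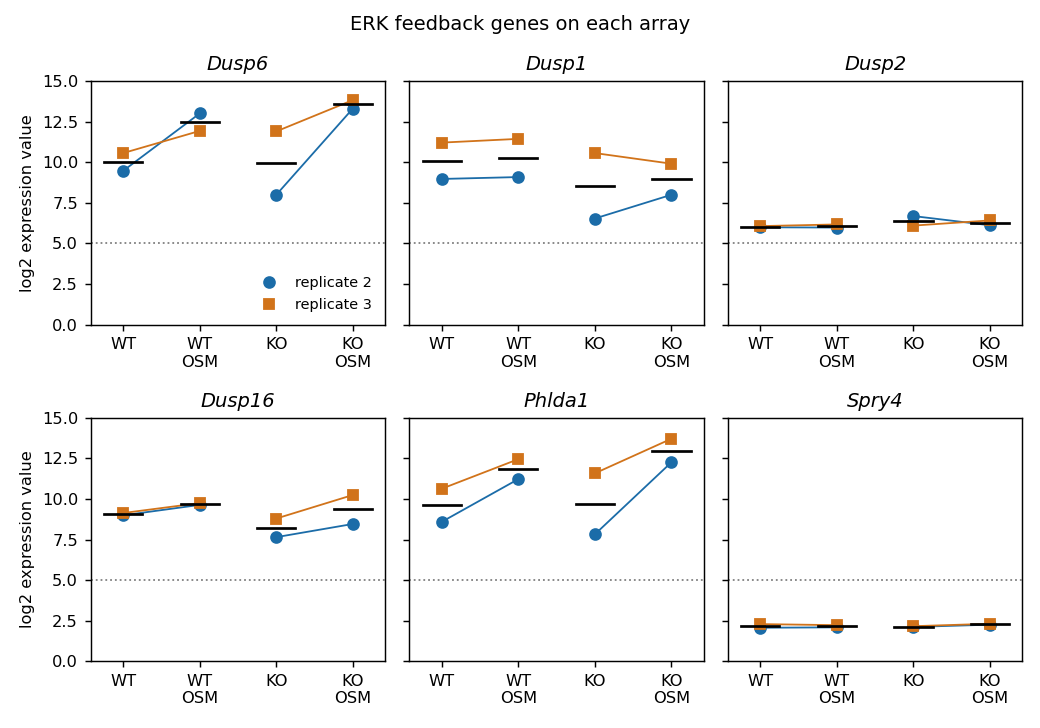
Log2 expression value (vertical axis) of the brightest probe set of 6 ERK feedback genes on each of 8 arrays, in Stat3 WT and Stat3 KO cells without and with OSM; circles are replicate 2, squares replicate 3, lines join arrays of one number, black bars are group means and the dotted line is the filter at 5. Dusp6 and Phlda1 were higher with OSM within both numbers and both genotypes, Dusp1 differed mainly between the numbers, and Spry4 stayed at 2.07 to 2.32.

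Dusp6, a cytoplasmic phosphatase selective for ERK, had the largest mean OSM difference of the 5 genes in both genotypes, although within replicate 3 that of Phlda1 was larger. In Stat3 WT cells Dusp6 stood at 9.48 (replicate 2) and 10.57 (replicate 3) before OSM and at 13.01 and 11.93 after it. In Stat3 KO cells the untreated arrays gave 8.0 and 11.90 and the OSM arrays 13.31 and 13.83. Every OSM array was above every untreated array of its own genotype, and the lowest value belonged to Stat3 KO untreated replicate 2. The Stat3 WT means were 10.02 ± 0.77 untreated and 12.47 ± 0.76 with OSM (SD, n = 2 each). The Stat3 KO means were 9.95 ± 2.76 untreated and 13.57 ± 0.37 with OSM (SD, n = 2 each).

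The OSM difference of Dusp6 in Stat3 WT was 3.53 within replicate 2 (11.6-fold) and 1.36 within replicate 3 (2.57-fold), with a mean of 2.45 ± 1.23 (SE). In Stat3 KO it was 5.31 (39.6-fold) and 1.93 (3.8-fold), with a mean of 3.62 ± 1.23 (SE). Neither mean passed limma's test over all 6756 probe sets (adjusted p = 1 for both, unadjusted 0.0925 in Stat3 WT and 0.0252 in Stat3 KO). With the replicate block limma gave adjusted p-values of 0.743 and 0.388. Without Stat3 KO untreated replicate 2 the Stat3 KO difference was 1.67, and without Stat3 KO untreated replicate 3 it was 5.57, in fits unbalanced in replicate number. The remaining Dusp6 probe set read 1.78 to 2.39 on all arrays and gave no measurable response.

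Phlda1, which encodes a phosphoinositide-binding protein induced by growth factors in many cell types, had the same order of arrays as Dusp6 within each number. In Stat3 WT cells Phlda1 stood at 8.59 (replicate 2) and 10.63 (replicate 3) before OSM and at 11.22 and 12.45 after it. In Stat3 KO cells the untreated arrays gave 7.82 and 11.58 and the OSM arrays 12.26 and 13.71. As for Dusp6, no OSM array overlapped the untreated arrays of its genotype, and Stat3 KO untreated replicate 2 was the lowest of all. The OSM difference was 2.63 and 1.82 within replicates 2 and 3 of Stat3 WT (6.18-fold and 3.53-fold), and 4.43 and 2.13 in Stat3 KO (21.6-fold and 4.37-fold). The means were 2.22 ± 1.36 and 3.28 ± 1.36 (SE). They did not pass limma over all probe sets (adjusted p = 1 for both), nor with the replicate block, where limma's unadjusted p-values were 0.0124 and 0.00214 and the adjusted ones 0.482 and 0.325. Without Stat3 KO untreated replicate 2 the Stat3 KO difference was 1.40, and without Stat3 KO untreated replicate 3 it was 5.16. In Stat3 WT it was 1.21 without untreated replicate 2 and 3.24 without untreated replicate 3. These fits, too, are unbalanced in replicate number.

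In both genes the arrays with the lowest untreated levels had the largest OSM differences, without a strict order among the others. For Dusp6 the untreated values of 8.0, 9.48, 10.57 and 11.90 came with differences of 5.31, 3.53, 1.36 and 1.93. For Phlda1 the untreated values of 7.82, 8.59, 10.63 and 11.58 came with differences of 4.43, 2.63, 1.82 and 2.13. The untreated value enters the difference, so this order is a description. In Stat3 KO cells the untreated arrays lay 3.90 apart for Dusp6 and 3.76 apart for Phlda1, and the OSM arrays 0.52 and 1.45 apart.

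Dusp1, a nuclear phosphatase acting on several MAP kinases and a classical serum-induced gene, differed between the replicate numbers more than with OSM. In Stat3 WT cells Dusp1 stood at 8.97 (replicate 2) and 11.21 (replicate 3) before OSM and at 9.09 and 11.44 after it, a difference of 0.12 and 0.23 within the numbers. In Stat3 KO cells the untreated arrays gave 6.54 and 10.57 and the OSM arrays 8.0 and 9.91, which is 1.46 higher within replicate 2 and 0.65 lower within replicate 3. The OSM and untreated arrays overlapped in both genotypes, and the mean OSM differences were 0.17 ± 1.60 in Stat3 WT and 0.40 ± 1.60 in Stat3 KO (SE, limma adjusted p = 1 for both). With the replicate block the 95% confidence intervals were -1.14 to 1.49 and -0.91 to 1.72. A 2-fold higher level with OSM lies inside both intervals, so these arrays do not show that Dusp1 was unresponsive.

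The sequence before the start site is shown for Dusp6, the phosphatase with the largest mean OSM difference, and for Dusp1, whose window holds a searched motif in full. RefSeq promoter entries (GRCm38.p6) matched 4 of the 6 genes, namely Dusp1, Dusp2, Dusp6 and Dusp16. The 250 bases upstream of the start lie at chr10:99262981-99263230 on the plus strand for Dusp6 and at chr17:26508473-26508722 on the minus strand for Dusp1. Capitals mark the cyclic AMP response element (CRE) and its half-site on either strand.
Dusp6: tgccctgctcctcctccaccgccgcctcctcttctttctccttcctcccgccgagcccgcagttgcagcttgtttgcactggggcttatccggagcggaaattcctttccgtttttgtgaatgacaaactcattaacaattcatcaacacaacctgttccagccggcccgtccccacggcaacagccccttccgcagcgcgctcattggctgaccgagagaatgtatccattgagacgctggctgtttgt
Dusp1: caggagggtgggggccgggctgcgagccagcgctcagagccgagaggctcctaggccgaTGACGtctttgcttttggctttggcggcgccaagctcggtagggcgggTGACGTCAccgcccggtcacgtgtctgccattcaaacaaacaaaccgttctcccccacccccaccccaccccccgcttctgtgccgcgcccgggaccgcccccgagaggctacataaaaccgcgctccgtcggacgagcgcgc

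The Dusp1 window holds the full CRE, TGACGTCA, from base -143 to -136 relative to the start and a further half-site, TGACG, from -191 to -187. The full CRE is in 1.55% of 32841 promoter windows of the same length and the half-site, which also lies within the full element on both strands, in 17.8%. Dusp16 holds 1 half-site, from -70 to -66, and Dusp2 and Dusp6 hold none. The STAT motif TTCNNNGAA (7.02% of windows), the AP-1 motif TGANTCA (6.75%), the ETS motif CCGGAA (12%) and the CArG box bound by serum response factor (1.47%), searched on both strands, were in none of the 4 windows. These letter matches are descriptions of a short window only.

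Dusp16, a phosphatase directed mainly at JNK and p38, was higher with OSM by its kept probe set on every within-number comparison. Within replicates 2 and 3 it was 1.56-fold and 1.53-fold higher in Stat3 WT, and 1.75-fold and 2.73-fold in Stat3 KO. In Stat3 WT cells its kept probe set stood at 8.99 and 9.13 before OSM and at 9.64 and 9.75 after it, without overlap. In Stat3 KO cells the untreated arrays gave 7.65 and 8.8 and the OSM arrays 8.46 and 10.24, and the groups overlapped. The mean differences were 0.63 ± 0.67 in Stat3 WT and 1.13 ± 0.67 in Stat3 KO (SE), and neither passed limma (adjusted p = 1 for both). With the replicate block both 95% confidence intervals held 0, at -0.53 to 1.79 and -0.03 to 2.29. The dimmer Dusp16 probe set read 3.89 to 5.76, its highest value on Stat3 KO untreated replicate 2, and within replicate 2 of Stat3 KO cells it differed by -1.04, opposite to the kept one.

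Dusp2, a nuclear phosphatase best known from activated immune cells, read 5.98 to 6.69 on all 8 arrays. Its OSM differences were 0.04 ± 0.37 in Stat3 WT and -0.13 ± 0.37 in Stat3 KO (SE, limma adjusted p = 1 for both). Spry4, an inhibitor of receptor-driven Ras and Raf activation, read 2.07 to 2.32, under the filter on all 8 arrays, and no response could be measured. A probe set this dim does not show that the transcript was absent.

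**Figure D2:**
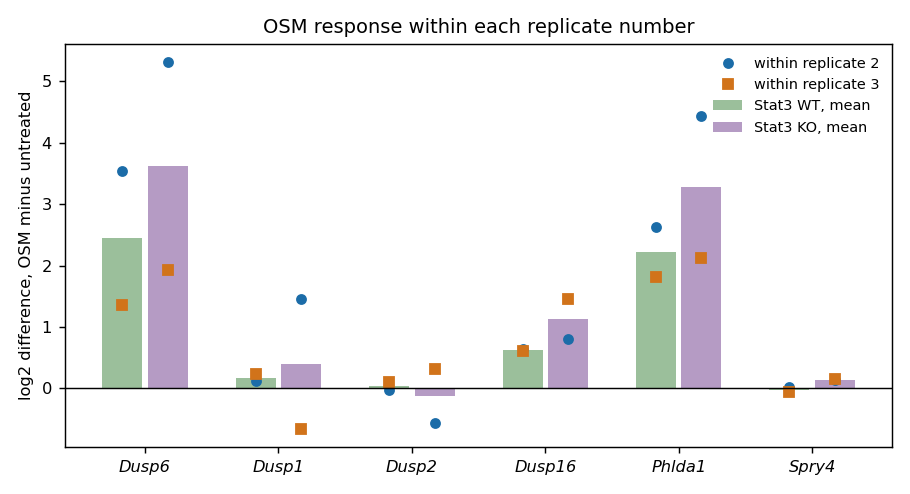
Log2 difference between OSM and untreated cells (vertical axis) for 6 genes; bars are the mean of both replicate numbers in Stat3 WT and Stat3 KO cells, circles and squares the difference within replicate 2 and replicate 3. Dusp6 and Phlda1 exceeded 1 at all 4 points each, and Dusp1 and Dusp2 had points on both sides of 0 in Stat3 KO.

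Counted over the 5 kept genes, none passed limma's adjusted p of 0.05 for OSM in Stat3 WT, where 0 of 6756 probe sets (0%) passed and 126 (1.87%) had an unadjusted p under 0.05. In Stat3 KO the counts were again 0 genes and 0 probe sets (0%), with 138 probe sets (2.04%), Dusp6 among them, at an unadjusted p under 0.05. With the replicate block 1 probe set (0.0148%) passed in Stat3 WT and 2 (0.0296%) in Stat3 KO, none of them among the 5 genes. A difference of at least 2-fold upward within both numbers held for 2 of the 5 genes, Dusp6 and Phlda1, in Stat3 WT, against 2.01% of all probe sets, and for the same 2 genes in Stat3 KO, against 2.19%. It held in both genotypes at once for 62 probe sets (0.918%), including these 2. Groups did not overlap, with OSM higher, for 3 genes in Stat3 WT (8.29% of all probe sets) and 2 in Stat3 KO (14.4%). The median difference of the 5 genes was 0.63 in Stat3 WT and 1.13 in Stat3 KO, and that of all probe sets -0.04 and 0.02. The mean difference of Dusp6 exceeded that of 99.45% of probe sets in Stat3 WT and 99.72% in Stat3 KO, and that of Phlda1 99.3% and 99.6%.

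**Figure D3:**
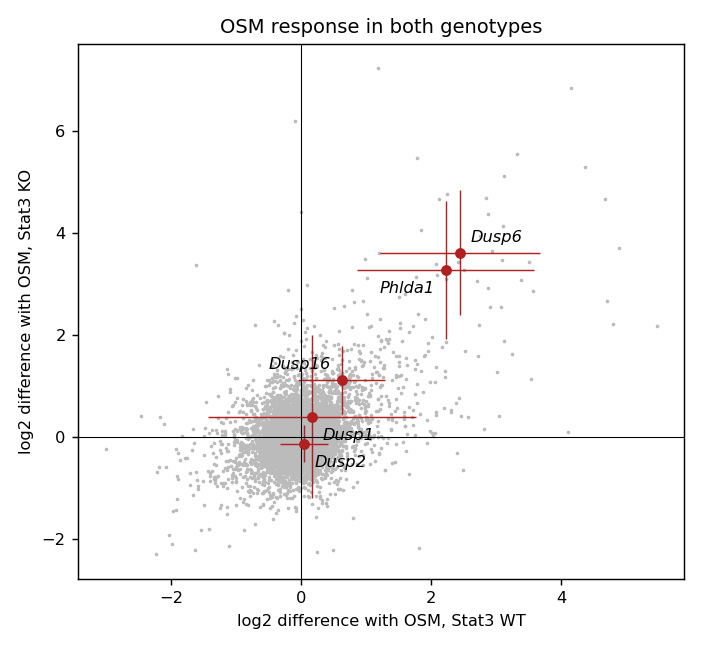
Mean log2 difference with OSM in Stat3 WT (horizontal axis) and Stat3 KO cells (vertical axis); grey dots are all 6756 tested probe sets, red points the 5 kept genes with limma standard errors. Dusp6 and Phlda1 lie at 2.45 and 3.62 and at 2.22 and 3.28, away from the bulk of probe sets, with error bars over 1.2 in length to each side.

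Whether the OSM responses differed between the genotypes was tested as an interaction. The Stat3 KO response minus the Stat3 WT response was 1.17 ± 1.74 for Dusp6 and 1.06 ± 1.92 for Phlda1 (SE, limma adjusted p = 1 for both). It was above 0 within both numbers, at 1.78 and 0.56 for Dusp6 and 1.81 and 0.31 for Phlda1, as for 34.6% of all probe sets. With the replicate block the 95% confidence intervals ran from -2.63 to 4.97 for Dusp6 and from -1.10 to 3.22 for Phlda1, so neither an equal response nor one several-fold larger in Stat3 KO cells could be told from these arrays. Without Stat3 KO untreated replicate 2 the difference turned to -0.78 for Dusp6 and -0.82 for Phlda1. That fit has no block and leaves only replicate 3 for untreated Stat3 KO. The turn therefore cannot be told apart from the difference between the numbers. Dusp16, Dusp1 and Dusp2 had interactions of 0.50 ± 0.94, 0.23 ± 2.26 and -0.17 ± 0.52 (SE), and 0 of 6756 probe sets (0%) passed, with 29 (0.429%) at an unadjusted p under 0.05 and 0 (0%) passing with the block.

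The genotypes were also compared directly, with the same untreated or OSM arrays as above. Untreated Dusp6 was lower in Stat3 KO within replicate 2 (-1.48) and higher within replicate 3 (1.33), and Phlda1 likewise (-0.77 and 0.95), so their means of -0.07 and 0.09 describe neither number. Dusp1 was lower in untreated Stat3 KO cells within both numbers (-2.43 and -0.64), a mean of -1.54 ± 1.60 (SE, limma adjusted p = 1). With the replicate block the SE was 0.53 and the 95% confidence interval, not adjusted for multiple testing, ran from -2.85 to -0.23 (limma adjusted p = 0.459). With OSM Dusp1 was again lower (-1.09 and -1.53), and at least 2-fold lower within both numbers, as were 1.73% of all probe sets. Its interval there with the block held 0, at -2.62 to 0.004. With OSM Phlda1 was higher in Stat3 KO by 1.04 and 1.26, and 2.04% of all probe sets were at least 2-fold higher within both numbers. Dusp6 was higher by 0.30 and 1.90 there, its arrays not overlapping, which held for 11.2% of probe sets in that direction.

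None of the 5 genes passed in either genotype comparison. Limma called 0 of 6756 probe sets (0%) without OSM, with 151 (2.24%) at an unadjusted p under 0.05, and 1 (0.0148%) with OSM, with 243 (3.6%) at that level. Without OSM the arrays of the genotypes did not overlap for Dusp2, higher in Stat3 KO as were 6.81% of probe sets, and for Dusp16, lower there as were 12.4%. With the replicate block it called 0 (0%) and 7 (0.104%). In order of mean level Dusp6 stood highest in Stat3 KO with OSM, then Stat3 WT with OSM, Stat3 WT untreated and Stat3 KO untreated. The first neighbours differed by 1.10 ± 1.23 and the last by 0.07 ± 1.23 (SE). With the replicate block the SE was 1.08 for both, and both 95% confidence intervals held 0. For Phlda1 the order was Stat3 KO with OSM (12.98 ± 1.03), Stat3 WT with OSM (11.84 ± 0.87), Stat3 KO untreated (9.70 ± 2.66) and Stat3 WT untreated (9.61 ± 1.44, SD, n = 2 each). Its OSM groups differed by 1.15 ± 1.36 (SE). With the replicate block the SE of that difference was 0.62, and the 95% confidence interval ran from -0.38 to 2.67.

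The only limma calls among these genes were between the replicate numbers, a term setting all arrays of 1 number against the others. By size, the mean OSM differences of Dusp6 (3.62) and Phlda1 (3.28) in Stat3 KO were larger than their number differences, though not called. With number as a term in limma, Dusp1 was 2.63 ± 0.37 (SE) higher in replicate 3 (adjusted p = 0.00675), by 2.24, 2.35, 4.03 and 1.91 in the 4 groups. Phlda1 was 2.12 ± 0.44 (SE) higher (adjusted p = 0.0158), by 1.23 to 3.76. Dusp16 differed by 0.80 ± 0.33 (adjusted p = 0.103), Dusp6 by 1.11 ± 0.77 (adjusted p = 0.28) and Dusp2 by -0.01 ± 0.21 (SE, adjusted p = 0.981). The 2 genes called of 5 stand beside 41.1% of all probe sets called, and both were higher in replicate 3, as were 23.4% of all probe sets. The share is near the background. Dusp6 was higher in replicate 3 by 1.09 in untreated Stat3 WT and by 3.90 in untreated Stat3 KO cells, but by -1.08 in Stat3 WT with OSM. The 18S control lay at 11.02 to 11.67 on the replicate 2 arrays and at 14.75 to 15.13 on the others. Actin's 3' probe set exceeded its 5' one by 0.33 to 0.53 in replicate 2 and by 0.72 to 1.11 in replicate 3. Their part in the difference of Dusp1 and Phlda1 was not tested.

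Other genes of the pathway were read from 4 lists. No member of any list passed limma over all probe sets in either OSM comparison, and with the replicate block 1 did, Ereg in Stat3 KO. The ERK cascade components, from adaptors to the kinases activated by ERK, had medians of 0.06 in Stat3 WT and -0.09 in Stat3 KO over 13 tested genes, and 0 of 13 differed at least 2-fold within both numbers in either direction. Gab1, an adaptor linking receptors to Ras, was lower with OSM on every comparison, at 11.91 and 12.03 before against 10.34 and 11.33 after OSM in Stat3 WT, and at 12.21 and 12.55 against 11.17 and 11.60 in Stat3 KO. Its differences were -1.13 ± 0.40 and -0.99 ± 0.40 (SE, limma adjusted p = 1 for both). With the replicate block the 95% confidence intervals were -1.76 to -0.50 and -1.62 to -0.36, with limma adjusted p-values of 0.369 and 0.379. Mknk2, a kinase downstream of ERK, differed by -1.01 ± 0.57 in Stat3 WT and -0.58 in Stat3 KO. Its intervals with the block were -1.55 to -0.46 and -1.12 to -0.03, with limma adjusted p-values of 0.369 and 0.449. Grb2, an adaptor for the Ras activator Sos, differed by 0.62 ± 0.41 and -0.09, and its intervals held 0. Nras, a Ras protein, differed by 0.33 and 0.53 ± 0.26 and Sos2, a Ras activator, by 0.55 and 1.0 ± 0.76 in Stat3 WT and Stat3 KO.

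Among 5 tested genes of other negative regulators, Errfi1, an inhibitor of the epidermal growth factor receptor, was at least 2-fold higher with OSM within both numbers in both genotypes, as Dusp6 and Phlda1 were. In Stat3 WT cells Errfi1 stood at 7.37 and 10.21 before OSM and at 11.64 and 11.70 after it, and in Stat3 KO cells at 8.21 and 10.24 before and 13.22 and 13.98 after. The OSM arrays lay above the untreated arrays in both genotypes, with differences of 2.88 ± 1.05 and 4.37 ± 1.05 (SE, limma adjusted p = 1 for both). With the replicate block the 95% confidence intervals were 1.23 to 4.54 and 2.72 to 6.03, with limma adjusted p-values of 0.409 and 0.242. Spred2, a Sprouty-related inhibitor of Raf activation, differed by 0.80 ± 0.42 and 1.22 ± 0.42, without overlap in either genotype. Rasa1, a GTPase-activating protein for Ras, differed by 0.33 in Stat3 WT and 1.55 ± 0.84 in Stat3 KO, where its arrays did not overlap. Pebp1, a Raf inhibitor, differed by -0.40 ± 0.34 in Stat3 WT and by 0.00 in Stat3 KO.

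Among 18 tested ERK-responsive transcription and ligand genes, 5 were at least 2-fold higher within both numbers in Stat3 WT (2.01% of all probe sets) and 9 in Stat3 KO (2.19%), and 0 were lower in either. Their medians were 0.64 and 1.26. In the interaction 5 of the 18, named after their values were seen, had a response at least 2-fold larger in Stat3 KO within both numbers, beside 1.42% of all probe sets, and 0 of the 18 passed limma. They were Fosl1, Egr2, Mcl1, Fos and Ereg. Ereg read under 5 on 3 of 4 untreated arrays and Fos on 3 of 4 arrays of replicate 2, so these are differences from background readings. Within replicate 3 Fos read 7.75 to 13.05, and its interaction there was 3.21. Of Dusp6 and Phlda1 neither had a response at least 2-fold larger in Stat3 KO within replicate 3. Ereg, an epidermal growth factor family ligand, had a limma adjusted p of 0.0214 with the replicate block in Stat3 KO and 0.116 without it. Its untreated readings were under 5 on 3 of 4 arrays (3.35 to 5.16), so it passed the filter through the OSM arrays, and its size of change is measured against background. Fosl1, an AP-1 subunit, differed by 3.10 ± 0.46 and 4.14 ± 0.46 in Stat3 WT and Stat3 KO (SE). Junb, another, differed by 1.98 ± 0.66 and 1.09 ± 0.66. Egr2, a zinc finger factor, differed by 2.12 ± 1.08 and 4.67 ± 1.08. With the replicate block their SEs were 0.34, 0.36 and 0.64. Limma's adjusted p-values with the block were 0.139 and 0.0508 for Fosl1 and 0.546 and 0.172 for Egr2. None of these genes was called, with or without the block. The Junb probe set given differed by 0.42 within replicate 2 of Stat3 KO. A further Junb probe set was at least 2-fold higher within both numbers in both genotypes. Of the OSM receptor and gp130 genes, Socs3, the inhibitor of gp130 signalling, differed by 4.89 ± 1.2 and 3.71 ± 1.2, the receptor subunit Osmr by 2.07 ± 1.49 and 3.39 ± 1.49, the shared subunit Il6st by 0.94 ± 0.44 and 0.10 ± 0.44, and the kinase Jak2 by 1.55 ± 0.64 and 1.22 ± 0.64 (SE), in Stat3 WT and Stat3 KO in turn. The Socs3 difference in Stat3 KO was 0.81 within replicate 2 and 6.61 within replicate 3, and the probe sets disagreed, since a further one for Socs3 was at least 2-fold higher within both numbers in both genotypes.

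**Figure D4:**
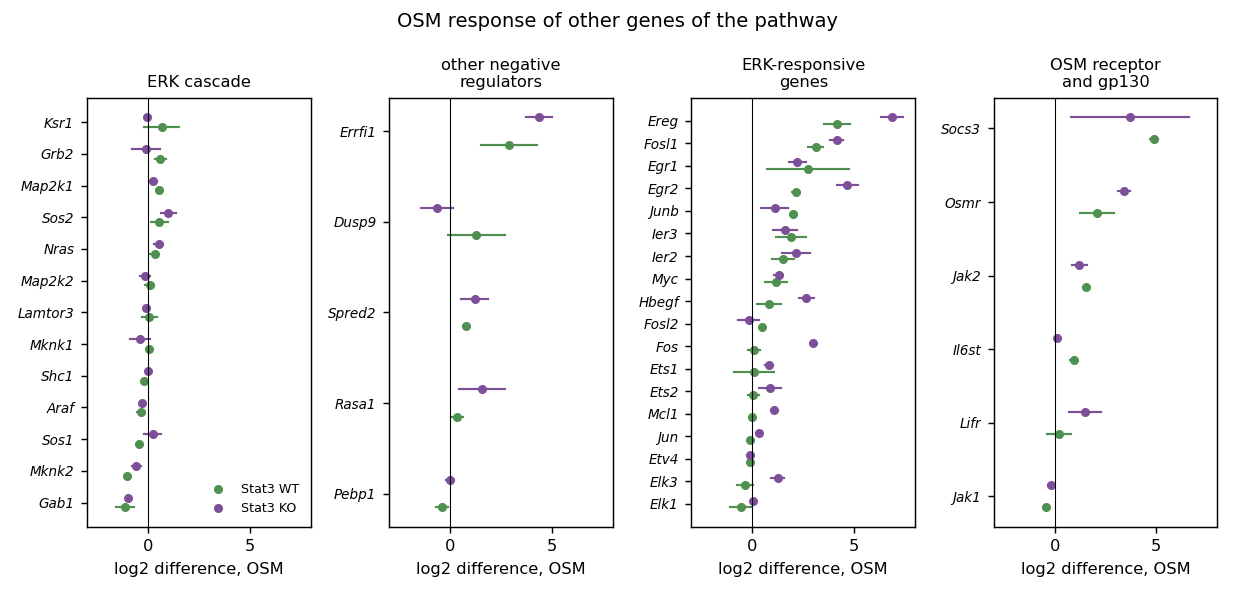
Log2 difference between OSM and untreated cells (horizontal axis) for the tested genes of 4 pathway lists; green is Stat3 WT, purple Stat3 KO, dots are means and lines span the differences within replicates 2 and 3. The 13 cascade genes lie around medians of 0.06 and -0.09, with Gab1 near -1 in both genotypes, while Errfi1, Ereg, Fosl1, Egr2, Socs3 and Osmr lie well to the right of it in both genotypes.

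The profile over the arrays was compared within the 5 genes and with others after the mean of each number was subtracted. Across 8 arrays Phlda1 correlated with Dusp6 at 0.976, Dusp16 at 0.637, Dusp1 at 0.24 and Dusp2 at -0.362. The arrays share their groups and their numbers, so these values describe likeness only. Out of 5190 genes outside the set, those most like the mean profile of the 5 were Plaur, the urokinase receptor (0.982), and the adaptor Bcl10 (0.982). Next came the ribosome biogenesis factor Ppan (0.982), the sodium pump subunit Atp1b3 (0.974) and the syntaxin Stx12 (0.973). The mean profile was not scaled by gene, so the genes with the widest range weigh most. A correlation does not measure the size of a change. Over the 8 arrays Atp1b3 read 13.00 to 13.43, Stx12 10.42 to 11.06 and Plaur 7.62 to 11.02, against 8.0 to 13.83 for Dusp6.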

How the data were processed

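Biotin-labelled cRNA from total RNA of 8 mouse fibroblast samples was read on Affymetrix arrays, per the labels' protocols. The authors deposited 1 log2 value per probe set and array, and the submitters' processing notes name affy and GCRMA without a version. Joint normalization of the arrays is not stated. GCRMA compresses dim signals. Of 12488 probe sets 66 were controls, and 10833 had 1 symbol in the platform annotation, 396 several and 1193 none. Groups and numbers came from the sample titles. Nothing says that the arrays of a group were separate cultures, and the p-values then cover only the spread between arrays, which may be technical.

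Probe sets with a log2 value of at least 5 on at least 2 arrays (6756, for 5195 genes) entered limma 3.58.1 (R 4.3.3, lmFit, eBayes with intensity trend, 4 group means, 4 residual degrees of freedom, two-sided, Benjamini-Hochberg, adjusted p under 0.05 called). A gene was represented by its kept probe set with the highest mean. The planned fit has no block. Between groups, the differences of replicate 3 from replicate 2 correlated at 0.589 to 0.9106, so the number was treated as pairing the arrays on the evidence of the data, and the replicate block leaves 3 degrees of freedom. The fitting code was tested on simulated data with less spread than the 5 tested member genes had, which says nothing of power here. All genes of the set were named whatever their result, with up to 3 genes per pathway list and OSM comparison by smallest p and the 5 most alike profiles. The members and lists were chosen with earlier results of these data known. Other settings were the filter, the trend, robust estimation, normalization, a floor, the block, the groups fitted, the probe set, the fold within numbers and leaving out each array. Sequences came from the RefSeq promoter table.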

Additional observations from a re-analysis of the deposited data

How the results depend on the processing

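No member was called in any of the 5 comparisons under any setting, including the replicate block and each array left out, and Dusp1 and Phlda1 were called between replicate numbers without a filter and after quantile normalization as well. The counts of members at least 2-fold higher with OSM within both numbers stayed at 2 in each genotype with the most variable probe set and, chosen after the data were seen, after quantile normalization or median centring, and were 3 in each at 1.5-fold. Over all probe sets the replicate block called 1 for OSM in Stat3 WT, 2 for OSM in Stat3 KO and 7 for the genotype effect with OSM, and it changed no call of a member. With values under 5 set to 5, 1 was called for OSM in Stat3 KO. The 1 call of the genotype effect with OSM was 0 with median centring, without the trend, with robust estimation, with only the groups compared, after quantile normalization and with values under 5 set to 5, and 0 to 1 with 1 array left out. Without a filter 7210 probe sets were called between the numbers, against 2775 of 6756 (41.1%) with it. More probe sets are tested without a filter, so these counts do not share a base.

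The OSM differences of Dusp6 ranged from 2.42 to 2.51 in Stat3 WT and 3.52 to 3.62 in Stat3 KO over the settings that keep all arrays, and those of Phlda1 from 2.22 to 2.29 and 3.17 to 3.28. With 1 array left out they ranged from 1.90 to 2.99 and 1.67 to 5.57 for Dusp6 and from 1.21 to 3.24 and 1.40 to 5.16 for Phlda1, never turning. Such a fit is unbalanced in replicate number by construction. It turned other uncalled values: the ranges were -3.55 to 0.47 for the untreated genotype difference of Dusp1, -1.78 to 2.25 for its interaction, -1.61 to 2.42 and -1.0 to 1.35 for its OSM effects in Stat3 KO and Stat3 WT, -1.23 to 0.55 for the genotype difference of Dusp16 with OSM and -0.39 to 1.39 for its interaction, -0.46 to 0.13 for the interaction of Dusp2 and -0.42 to 0.17 and -0.053 to 0.14 for its OSM effects in Stat3 KO and Stat3 WT, -2.02 to 1.88 and -1.79 to 1.97 for the untreated genotype differences of Dusp6 and Phlda1, and -0.78 to 3.12 and -0.82 to 2.94 for their interactions. Quantile normalization turned the untreated genotype difference of Dusp6 from -0.07 to 0.023. The cause of these changes was not tested. Values under 5, as for Spry4, are near background and limit what can be read from them.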

Other observations

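The OSM receptor subunit Osmr, before OSM, stood at 9.91 and 12.98 (replicates 2 and 3) on Stat3 WT arrays and at 6.84 and 9.87 on Stat3 KO arrays. After OSM it stood at 12.81 and 14.22 in Stat3 WT and at 10.54 and 12.95 in Stat3 KO cells. Osmr was therefore lower in Stat3 KO cells on all 4 comparisons within a number, and so were Jak2 and Socs3. With OSM 3 of the 6 tested OSM receptor and gp130 genes were at least 2-fold lower there within both numbers, and 0 were higher by that measure. Phlda1, Dusp6 and Errfi1 read higher in Stat3 KO cells with OSM within both numbers. Dusp1 went the other way (-1.09 and -1.53), and Dusp16 was mixed (-1.18 and 0.50). Of all probe sets 2.04% were at least 2-fold higher in Stat3 KO with OSM within both numbers, and 1.73% lower. A link between Osmr and these genes was not tested. These differences were not called.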
